A study of Mus musculus with 12 samples.

Results

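The comparison described here set 3 RNA-seq libraries labelled NICD_TCFKO against 3 labelled NOTCHWT_TCFWT, 6 of the 12 libraries of a study of Notch1 and Tcf7 in mouse bone marrow. All libraries came from sorted Lin- Sca1+ cKit+ (LSK) cells, a marrow fraction rich in haematopoietic stem cells and early progenitors, of mice with a mixed C57BL/6J; Sv/129 background. NOTCHWT_TCFWT mice were labelled wild type and received poly(I:C) at 2 ug/g as a control. NICD_TCFKO mice were labelled R26 N1IC lox/+ Tcf7 lox/lox Mx1Cre, that is, a lox-controlled allele of the active Notch1 intracellular domain at R26 and lox-flanked Tcf7 genes, with Mx1Cre induced by the same dose. Mx1Cre answers to interferon and recombines in many blood cells and in other tissues, so neither allele change is limited to LSK cells by its driver. NICD_TCFKO cells were gated in addition as CD45.2+ eGFP+, and NOTCHWT_TCFWT cells were not, so gate and genotype label cannot be told apart. The other 6 libraries, labelled NICD_TCFWT (R26 N1IC lox/+ Mx1Cre, with the added gate) and NOTCHWT_TCFKO (Tcf7 lox/lox Mx1Cre, without it), received poly(I:C) too and serve as points of reference. The age of the mice is not given in the sources used here.

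The pair of groups was chosen by measured values. Both had high levels of Dtx1 and Hes1, which Notch activates, and they differed widely in Tcf7. Those values are therefore given as a description and not tested. Tcf7 was high in the group whose label says it was deleted, so the groups are called throughout by their labels only, and no direction below is a direction of Tcf7 loss.

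Notch1 is a receptor that, once cut by ligand contact, releases an intracellular domain which enters the nucleus and joins the DNA-binding protein RBPJ to switch on genes such as Hes1, Dtx1 and Nrarp. In the thymus this signal commits progenitors to the T lineage. Tcf7 encodes TCF-1, a DNA-binding factor of the TCF/LEF family that is induced early in that process and that opens T cell genes, among them Gata3, Bcl11b and the genes of the T cell receptor complex.

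Levels are CPM, read counts scaled to a common library size by TMM, and each value belongs to 1 library, in the order of replicates 1, 2 and 3. They compare libraries for the same gene, not 1 gene with another. Log2 fold changes are NICD_TCFKO minus NOTCHWT_TCFWT with their standard error (SE), n = 3 libraries per group. A gene is called where edgeR's quasi-likelihood test gave p under 0.05 after Benjamini-Hochberg adjustment across the 16024 genes tested. Total counts ranged from 30453271 to 43790674 over the 12 libraries. The labels do not say whether replicates were separate mice. By their Xist and Y-linked levels, given below, NICD_TCFKO replicate 1 came from another mouse than replicates 2 and 3. The same levels part NICD_TCFWT replicate 3 from 1 and 2 (Xist 3242 against 0.271 and 1.88 CPM). They part NOTCHWT_TCFKO replicate 2 (Xist 3253 CPM) from replicate 3 (0.727 CPM), while replicate 1 held both Xist and Y-linked counts. Within NOTCHWT_TCFWT, and among libraries of like sex, they do not tell mice apart. The spread on which the p-values rest was fitted over all 12 libraries and may be technical in part. In sorted bulk cells a larger share of cells that express a gene and more RNA per cell cannot be told apart.

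Tcf7 measured 14.3, 10.5 and 19.6 CPM in NOTCHWT_TCFWT and 297, 896 and 615 CPM in NICD_TCFKO. The ratio of the group means was 40.7, and the groups lay far apart. In both other groups Tcf7 was lower still, at 4.68 to 6.76 CPM in NICD_TCFWT and 0.267 to 2.76 CPM in NOTCHWT_TCFKO. Dtx1, a ubiquitin ligase of the Notch pathway, measured 81.5, 82.8 and 91.9 CPM in NOTCHWT_TCFWT and 64.7, 165 and 132 CPM in NICD_TCFKO. Hes1, a repressor of the basic helix-loop-helix family, measured 163, 230.4 and 138 CPM in NOTCHWT_TCFWT and 222, 118 and 134 CPM in NICD_TCFKO. For both genes the groups overlapped, and the other 6 libraries lay below all 6 of them, with Dtx1 at no more than 0.425 CPM there and Hes1 at no more than 11.1 CPM. Notch1 itself measured 541, 622 and 549 CPM in NOTCHWT_TCFWT and 591, 887 and 846 CPM in NICD_TCFKO, with 157 to 195 and 104 to 197 CPM in the other groups. High Notch1 and target levels in libraries labelled wild type, and low ones in libraries labelled NICD_TCFWT, go against the labels too.

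The windows before 4 genes of the T lineage are shown as examples. In each of these genes, as in Tcf7, every NICD_TCFKO library was above every NOTCHWT_TCFWT library, which was so for 13.8% of all genes tested. They are the 250 bases before the RefSeq start in GRCm38.p6, in lower case, 5′ to 3′ on the strand of the gene, and they overlap no annotated exon. Capitals mark the core of RBPJ sites (TGGGAA, or TTCCCA on the other strand, which holds the GGAA core of ETS factors) or of TCF/LEF sites (CTTTGA or TCAAAG, which share bases with sites of Sox factors).
Ptcra, minus strand, chr17:46763713-46763962: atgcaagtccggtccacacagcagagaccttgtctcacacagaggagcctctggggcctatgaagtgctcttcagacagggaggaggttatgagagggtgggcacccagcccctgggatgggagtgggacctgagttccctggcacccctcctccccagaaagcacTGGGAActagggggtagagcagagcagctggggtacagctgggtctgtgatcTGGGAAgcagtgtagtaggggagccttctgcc
Cd3g, minus strand, chr9:44980432-44980681: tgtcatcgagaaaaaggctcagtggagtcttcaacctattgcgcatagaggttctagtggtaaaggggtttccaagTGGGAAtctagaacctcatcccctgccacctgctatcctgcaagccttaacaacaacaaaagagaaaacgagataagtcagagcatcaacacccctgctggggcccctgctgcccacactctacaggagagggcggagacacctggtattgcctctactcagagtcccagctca
Cd3d, plus strand, chr9:44981536-44981785: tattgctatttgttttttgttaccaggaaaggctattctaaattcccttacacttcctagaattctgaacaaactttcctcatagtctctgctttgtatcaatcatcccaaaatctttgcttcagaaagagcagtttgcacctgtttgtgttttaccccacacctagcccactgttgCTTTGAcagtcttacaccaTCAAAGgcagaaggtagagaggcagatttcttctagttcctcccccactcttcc
Il2ra, plus strand, chr2:11642542-11642791: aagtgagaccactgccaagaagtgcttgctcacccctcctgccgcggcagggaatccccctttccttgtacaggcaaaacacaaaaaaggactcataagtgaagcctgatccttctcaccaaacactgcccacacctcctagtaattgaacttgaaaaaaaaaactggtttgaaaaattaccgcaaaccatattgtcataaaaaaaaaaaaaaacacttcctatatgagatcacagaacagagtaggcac
Ptcra holds 2 RBPJ cores at bases -84 to -79 and -32 to -27 from the start, Cd3g 1 at -174 to -169, and Cd3d 2 TCF/LEF cores on opposite strands at -73 to -68 and -54 to -49. Il2ra holds neither motif in this window. Nor does Themis, a further T cell gene (log2 fold change 6.03), whose window is not shown.

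Over 10971 tested genes with such a window, 20.5% held the RBPJ core and 11% the TCF/LEF core. Among genes called higher in NICD_TCFKO the shares were 20.4% and 9.21%, and among those called lower 22.7% and 11%, close to the share of all genes. Of 17 T cell receptor and CD3 genes with a window, 10 held the RBPJ core, among them Cd3e, Cd3g, Cd5, Ptcra, Rag1, Lck and Zap70, and 5 the TCF/LEF core, namely Cd3d, Fyn, Lcp2, Txk and Zap70. Such a match is a run of letters in a window and was not measured as a bound site.

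In all, 642 genes (4.01% of those tested) were called higher and 368 (2.3%) lower in NICD_TCFKO, 6.3% in either direction. These counts run over all genes, Tcf7 included. Fold changes were larger on the higher side. Of the called genes 476 rose and 152 fell at least 2-fold, and 135 rose and 5 fell at least 16-fold. The median log2 fold change was 2 among genes called higher and -0.823 among those called lower, beside 0.0107 over all genes tested. In 637 of the 642 and 364 of the 368 called genes the 3 libraries of one group did not overlap the 3 of the other, which was so for 25.9% of all genes tested. The counts rested on few libraries. Without NOTCHWT_TCFWT replicate 1 they were 251 higher and 117 lower, without NOTCHWT_TCFWT replicate 3 they were 270 and 122, and without NICD_TCFKO replicate 3 they were 303 and 137.

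**Figure D1:**
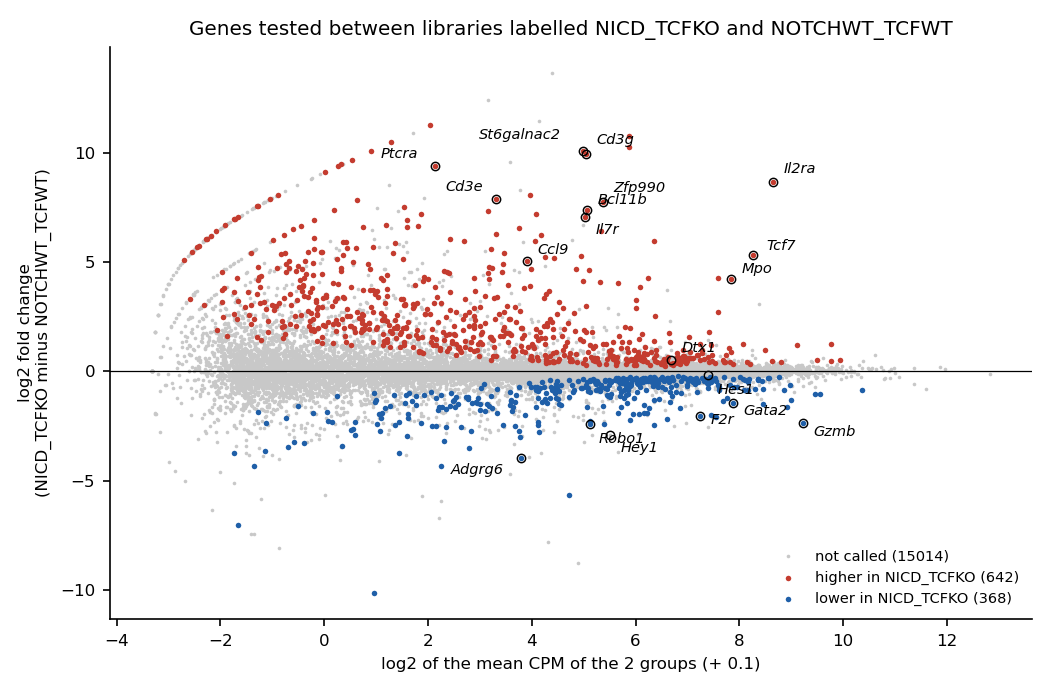
Each point is 1 of the 16024 genes tested, with its level over both groups on the x axis (log2 of the mean CPM plus 0.1) and its log2 fold change, NICD_TCFKO minus NOTCHWT_TCFWT, on the y axis. Red points are the 642 genes called higher and blue points the 368 called lower; Tcf7, Il2ra, Cd3g, Bcl11b and Il7r stand far above 0, while Dtx1 and Hes1 lie near it.

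The direct Notch targets did not move as 1 block. Members of this list chose the pair, so its genes are described without a test here and below, and where a called member belongs to another list as well, the count without it is given. Of 18 members with enough counts, 10 had a log2 fold change above 0, and the median was 0.21. Nrarp, a feedback inhibitor of Notch signalling, measured 121, 108 and 114 CPM in NOTCHWT_TCFWT and 75.7, 70.7 and 59.9 CPM in NICD_TCFKO, lower in all 3 (log2 fold change -0.73 ± 0.14). Hey1, a repressor related to Hes1, measured 69.8, 109 and 61.4 CPM in NOTCHWT_TCFWT and 22.3, 4.07 and 5.35 CPM in NICD_TCFKO, with its lowest NOTCHWT_TCFWT library above every NICD_TCFKO library. In both other groups Nrarp reached no more than 6.79 CPM and Hey1 no more than 1.16 CPM, below every NICD_TCFKO library. Notch3, a further Notch receptor and target, measured 42.9, 53.1 and 39.3 CPM in NOTCHWT_TCFWT and 45.8, 108 and 116 CPM in NICD_TCFKO, where replicate 1 overlapped the other group. Myc measured 267, 253 and 295 CPM in NOTCHWT_TCFWT and 262, 288 and 248 CPM in NICD_TCFKO, overlapping values. Hes5, Hey2 and Ccnd1 had log2 fold changes between -0.04 and 0.08, each with overlapping groups. Igf1r and Nfkb2 were lower in every NICD_TCFKO library, at 50.9, 61.6 and 63.5 against 47.3, 32.6 and 44 CPM and 54.5, 54.7 and 53 against 38.3, 37.7 and 42.1 CPM. The cell cycle genes Ccnd3 and Cdkn1a were higher in every NICD_TCFKO library, with log2 fold changes of 0.35 and 1.52, while the groups overlapped in Heyl, at 1.76, 1.39 and 4.18 and 3.1, 9.18 and 12.6 CPM.

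Il2ra, Ptcra and Gata3, targets that act in T cell differentiation, were higher in NICD_TCFKO, while others given above, such as Hes1, Myc and Nrarp, overlapped or were lower. Il2ra, which encodes the alpha chain of the interleukin-2 receptor (CD25) and marks early T progenitors in the thymus, measured 1.27, 1.06 and 3.38 CPM in NOTCHWT_TCFWT and 395, 1265 and 745 CPM in NICD_TCFKO. Ptcra, which encodes the invariant chain of the pre-T cell receptor, was found with 1 count over the NOTCHWT_TCFWT libraries and 1037 over the NICD_TCFKO libraries, 1.73, 9.01 and 14.8 CPM. That is a ratio of 920 with an exact 95% interval of 165 to 36400, which covers counting error only. Ptcra had 0 counts in the other 6 libraries. Gata3, a factor required for T cell commitment, measured 19.3, 13.3 and 12 CPM in NOTCHWT_TCFWT and 32.8, 68.7 and 52 CPM in NICD_TCFKO. No library of NOTCHWT_TCFWT reached the lowest NICD_TCFKO library in any of these 3 genes.

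**Figure D2:**
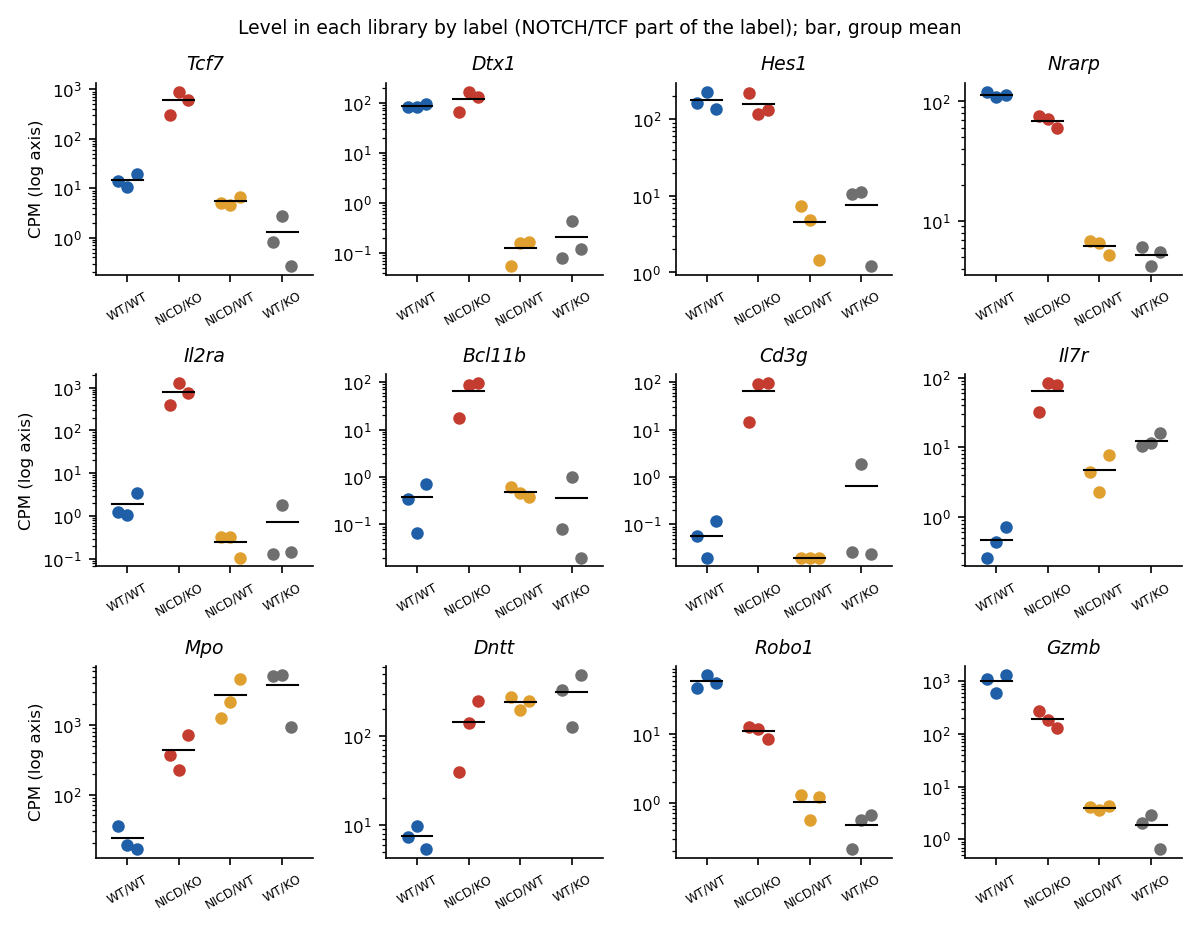
Level of 12 genes in each of the 12 libraries, in CPM on a log axis with a count of 0 drawn at 0.02; points are libraries and bars group means, with NOTCHWT_TCFWT in blue (WT/WT), NICD_TCFKO in red (NICD/KO), NICD_TCFWT in orange (NICD/WT) and NOTCHWT_TCFKO in grey (WT/KO). Dtx1, Hes1 and Nrarp are high in blue and red alike, Il2ra, Bcl11b and Cd3g in red, Mpo and Dntt lowest in blue, and Robo1 and Gzmb fall from blue to red to the other groups.

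Genes of the T cell receptor and its signalling chain had the largest share of called members of the lists. Of 30 members 26 had enough counts to be tested, 16 were called higher and none lower, and without the Notch target Ptcra 15 of 25 were. The share of members called higher is to be read beside 4.01% of all genes tested. Their median log2 fold change was 2.25. At an unadjusted p under 0.05 edgeR counted 21 higher and 1 lower, DESeq2 called 17 higher and 0 lower, and limma-voom 9 and 0. In 12 of the 16 the NICD_TCFKO libraries lay above all 9 others. The count was 6 to 18 when each library was left out in turn, with 6 without NOTCHWT_TCFWT replicate 1 or replicate 3, 7 without NOTCHWT_TCFWT replicate 2, 8 without NICD_TCFKO replicate 2 or 3, and 18 without NICD_TCFKO replicate 1.

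Tcrg-C2, a constant segment of the gamma chain, measured 0.0288, 0.132 and 0.117 CPM in NOTCHWT_TCFWT and 40.9, 189 and 123 CPM in NICD_TCFKO (log2 fold change 10.26 ± 0.89, edgeR adjusted p = 0.00043). Its close copy Tcrg-C1 measured 3.66, 0.727 and 3.2 CPM in NOTCHWT_TCFWT and 50.4, 278 and 152 CPM in NICD_TCFKO (edgeR adjusted p = 0.0081). Near-identical segments can share reads, so the split between them is uncertain. Both were high in every NICD_TCFKO library and lowest in replicate 1. Cd247, the zeta chain that carries the receptor's signal into the cell, measured 0.779, 0.76 and 0.7 CPM in NOTCHWT_TCFWT and 5.53, 21.6 and 23.5 CPM in NICD_TCFKO (log2 fold change 4.50 ± 0.50, edgeR adjusted p = 0.00090). Cd5, a surface brake on receptor signalling, measured 3.92, 2.38 and 2.31 CPM in NOTCHWT_TCFWT and 10.9, 27.1 and 15.2 CPM in NICD_TCFKO (log2 fold change 2.62 ± 0.41, edgeR adjusted p = 0.0053). These 4 genes were called in each of the 6 fits that leave out 1 library.

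The CD3 chains, which assemble with the receptor at the surface, were almost without counts in NOTCHWT_TCFWT. Cd3g measured 0.0577, 0 and 0.117 CPM there and 14.3, 89.8 and 94.6 CPM in NICD_TCFKO, and Cd3e 0.0288, 0.0331 and 0.163 CPM in NOTCHWT_TCFWT and 3.88, 26 and 28.6 CPM in NICD_TCFKO. Their libraries did not overlap, with log2 fold changes of 9.95 ± 1.91 and 7.87 ± 1.91. The edgeR adjusted p values of 0.028 and 0.042 were not kept without a library. Each call was lost in 5 of the 6 fits that leave out 1, with adjusted p up to 0.11 for Cd3g and 0.14 for Cd3e. Cd3d measured 0.0288, 0.0661 and 0.14 CPM in NOTCHWT_TCFWT and 1.13, 5.45 and 8.02 CPM in NICD_TCFKO, and its call (edgeR adjusted p = 0.045) was likewise lost in 5 of the 6, up to 0.16. Zap70, a kinase that binds the phosphorylated zeta chain, was called with a log2 fold change of 2.00 ± 0.38 and an edgeR adjusted p of 0.013, and 0.060 without NOTCHWT_TCFWT replicate 1. Rag1, a subunit of the recombinase that assembles antigen receptor genes, measured 7.96, 9.42 and 10.3 CPM in NOTCHWT_TCFWT and 19.7, 54.7 and 53 CPM in NICD_TCFKO. Its edgeR adjusted p was 0.043, and up to 0.14 without a library.

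Other members were high in both groups. Trbc2, a constant segment of the beta chain, measured 146, 121 and 143 CPM in NOTCHWT_TCFWT and 82, 246 and 192 CPM in NICD_TCFKO, while both other groups held at most 1.49 CPM. Lck, the kinase that starts receptor signalling, measured 210.1, 216 and 182 CPM in NOTCHWT_TCFWT and 249.8, 556 and 411 CPM in NICD_TCFKO, with at most 46.4 CPM elsewhere. Neither passed the test between the groups (adjusted p = 0.78 and 0.20 in edgeR), which does not show that they were equal, and for Lck every NICD_TCFKO library was above every NOTCHWT_TCFWT library. Lcp2, an adaptor below the receptor, measured 234, 241 and 204 CPM in NOTCHWT_TCFWT and 214, 257 and 226 CPM in NICD_TCFKO. Trac, the constant segment of the alpha chain, had too few counts to be tested, with 0, 0.0484 and 0.0249 CPM in NICD_TCFKO.

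**Figure D3:**
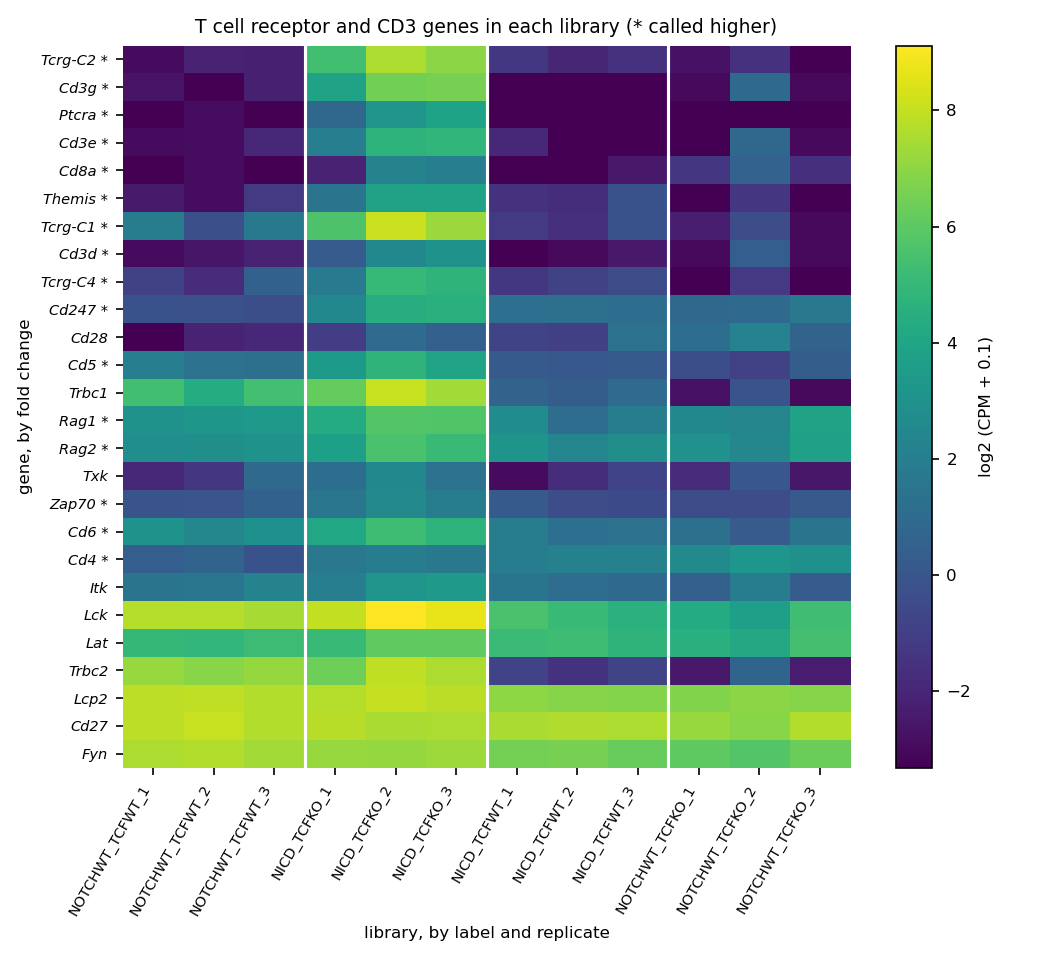
Level of the 26 tested T cell receptor and CD3 genes in each library as log2 of CPM plus 0.1, with genes ordered by log2 fold change and an asterisk on the 16 called higher. The upper rows are bright in NICD_TCFKO alone and dimmer in its replicate 1, whereas Lck, Trbc2 and Lcp2 in the lower rows are bright in NOTCHWT_TCFWT too.

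NICD_TCFKO replicate 1 stood apart from replicates 2 and 3 in these genes. It lay below both in 24 of the 26 members (92.3%), which was so for 34.9% of all genes tested, and the mean of replicates 2 and 3 was at the median 2.85 times its level. It lay below both as well in 16 of 24 granulocyte and monocyte genes (66.7%) and 10 of 18 direct Notch targets (55.6%). Among 30 cell cycle genes the share was 33.3%. That library also had 0.5 CPM of Xist and 357 CPM over the Y-linked genes, while the other 5 libraries compared had 3169 to 4603 CPM of Xist and at most 2.88 CPM over the Y-linked genes. The part of the sex of the mouse in its lower T cell levels was not tested. Without this library 781 genes were called higher and 504 lower.

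Among transcription factors of the T lineage other than the Notch target Gata3, 3 of 28 tested rose and 2 fell, beside 4.01% and 2.3% of all genes, and the median was 0.13. With Gata3 it was 4 higher and 2 lower, and 2 and 0 without NOTCHWT_TCFWT replicate 1, 4 and 0 without NOTCHWT_TCFWT replicate 2 or NICD_TCFKO replicate 2, and 6 and 1 without NICD_TCFKO replicate 1; without NOTCHWT_TCFWT replicate 3 and without NICD_TCFKO replicate 3 the lower count was 1. Bcl11b, which seals T cell commitment, measured 0.346, 0.0661 and 0.724 CPM in NOTCHWT_TCFWT and 17.8, 86.3 and 94.7 CPM in NICD_TCFKO (log2 fold change 7.38 ± 1.26, edgeR adjusted p = 0.012). Without NOTCHWT_TCFWT replicate 1 its adjusted p was 0.059. Ets1, a factor needed for T cell development, measured 44.7, 47.5 and 43.8 CPM in NOTCHWT_TCFWT and 67.8, 125 and 159.99 CPM in NICD_TCFKO (log2 fold change 1.38 ± 0.26, edgeR adjusted p = 0.015, and up to 0.065 without a library). Gfi1, a repressor active in lymphoid and myeloid progenitors, rose as well, with a log2 fold change of 1.27 ± 0.22. Bcl11a and Ikzf2 fell, with log2 fold changes of -0.41 ± 0.10 and -0.35 ± 0.08 and adjusted p up to 0.087 and 0.089 without a library. Runx1, Runx3, Myb, Tcf3, Tcf12, Ikzf1 and Spi1, which T cell precursors share with other progenitors, had log2 fold changes between -0.08 and 0.35 and were not called. Lef1, the closest relative of Tcf7 in this list, measured 0, 0 and 0.14 CPM in NOTCHWT_TCFWT and 0.45, 3.34 and 7.2 CPM in NICD_TCFKO and narrowly missed the threshold (edgeR adjusted p = 0.052).

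Tcf7 aside, of 21 tested genes of the TCF/LEF and Wnt pathway 1 rose and 1 fell, shares close to those of all genes, and the median was -0.12. Tle3, a co-repressor of the Groucho family that binds TCF factors, measured 92.8, 111 and 109 CPM in NOTCHWT_TCFWT and 156, 252 and 213 CPM in NICD_TCFKO (log2 fold change 0.98 ± 0.15, edgeR adjusted p = 0.0047). Tle1, of the same family, went the other way, from 34.8, 36.7 and 30.3 CPM in NOTCHWT_TCFWT to 16.3, 10.8 and 9.61 CPM in NICD_TCFKO (-1.47 ± 0.18, edgeR adjusted p = 0.0017). Both were called under all 15 alternative settings. Axin2, a common Wnt target, measured 0.952, 0.959 and 2.66 CPM in NOTCHWT_TCFWT and 2.83, 5.86 and 5.23 CPM in NICD_TCFKO and was not called (adjusted p = 0.060). Ctnnb1, which encodes beta-catenin, differed by -0.14 ± 0.09.

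Few genes of the Notch machinery, its receptors, ligands, processing enzymes and cofactors, were called. Of 31 tested 2 rose and 1 fell, near the 4.01% and 2.3% of all genes, and the median was -0.08. Without NOTCHWT_TCFWT replicate 3 both counts were 0. Lfng, which adds sugars to Notch receptors, measured 17.2, 17.5 and 14 CPM in NOTCHWT_TCFWT and 26.8, 39.4 and 29.98 CPM in NICD_TCFKO (0.99 ± 0.19, edgeR adjusted p = 0.013, and 0.055 without NOTCHWT_TCFWT replicate 3). Notch4 rose (1.36 ± 0.31) and the ligand gene Dll1 fell, from 2.08, 0.727 and 1.91 CPM in NOTCHWT_TCFWT to 0.375, 0.266 and 0.324 CPM in NICD_TCFKO, with adjusted p up to 0.11 and 0.13 without a library.

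Some genes of T cell surface proteins, cytokine receptors and lymphoid-primed progenitors were called, most of them higher. Of 20 T cell surface genes 6 were called higher and 1 lower, of 36 cytokine receptor genes other than Il2ra 8 higher and none lower, and of 18 genes of lymphoid-primed progenitors 6 higher and none lower, beside 4.01% and 2.3% of all genes. The medians were 0.32, 0.25 and 1.16. Most members of each list were not called. With 1 library left out the higher counts were 2 to 6, 5 to 10 (Il2ra included, 9 in the full fit) and 3 to 6. The T cell surface count was 2 without NOTCHWT_TCFWT replicate 3, 3 without NOTCHWT_TCFWT replicate 1 or NICD_TCFKO replicate 2 or 3, and 4 without NOTCHWT_TCFWT replicate 2, and the lower count was 0 without NOTCHWT_TCFWT replicate 3 or NICD_TCFKO replicate 2. The cytokine receptor count was 5 without any of NOTCHWT_TCFWT replicates 1 and 3 and NICD_TCFKO replicates 2 and 3. The lymphoid-primed count was 3 without NOTCHWT_TCFWT replicate 1 or 3. For the lower side, edgeR at an unadjusted p under 0.05 counted 9 of the cytokine receptors and 0 of the lymphoid-primed genes, DESeq2 called 5 and 0, and limma-voom 1 and 0. Il7r, the interleukin-7 receptor chain that lymphoid precursors need to survive, measured 0.26, 0.43 and 0.724 CPM in NOTCHWT_TCFWT and 31.7, 83.4 and 78.6 CPM in NICD_TCFKO (log2 fold change 7.06 ± 0.64, edgeR adjusted p = 0.00043). It was called in all 15 alternative settings. The other groups lay between, at 2.29 to 7.63 CPM in NICD_TCFWT and 10.3 to 15.9 CPM in NOTCHWT_TCFKO. Ifngr2, a chain of the interferon-gamma receptor, was called with a log2 fold change of 0.67 ± 0.09, and Il6ra, the interleukin-6 receptor, with 2.79 ± 0.42. Thy1, a T cell surface protein, measured 49.95, 52.7 and 34.7 CPM in NOTCHWT_TCFWT and 81, 196 and 186 CPM in NICD_TCFKO (1.75 ± 0.35, edgeR adjusted p = 0.018, up to 0.076 without a library).

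Several of these genes were low in NOTCHWT_TCFWT rather than high in NICD_TCFKO. Btla, an inhibitory receptor of lymphocytes, measured 0.346, 0.364 and 0.467 CPM in NOTCHWT_TCFWT, 4.03, 8.89 and 7.77 in NICD_TCFKO, 10.7, 15.4 and 7.63 in NICD_TCFWT and 12.8, 11.4 and 22.7 in NOTCHWT_TCFKO (edgeR adjusted p = 0.00060). Dntt, the enzyme that adds bases at receptor junctions, measured 7.41, 9.78 and 5.39 CPM in NOTCHWT_TCFWT and 39.5, 142 and 246 CPM in NICD_TCFKO, with 199 to 276 CPM in NICD_TCFWT and 126 to 492 CPM in NOTCHWT_TCFKO (adjusted p = 0.012 in edgeR, up to 0.057 without a library). Both genes were lowest in NOTCHWT_TCFWT, with no overlap with any other group. Flt3, a receptor of multipotent and lymphoid progenitors, measured 48.6, 73.9 and 42.3 CPM in NOTCHWT_TCFWT and 127, 99.4 and 131 CPM in NICD_TCFKO, with 515 to 569.6 CPM in NICD_TCFWT, and missed the threshold (adjusted p = 0.052). Bcl2, the survival factor, measured 35.9, 22.7 and 32.3 and 63, 88.8 and 76.9 CPM in the groups compared (1.33 ± 0.18, edgeR adjusted p = 0.0027) and 163 to 199 CPM in NICD_TCFWT.

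Granulocyte and monocyte genes had the highest median of the 31 lists, 2.93, with 6 of 24 tested called higher and none lower, beside 4.01% and 2.3% of all genes. The higher count was 2 without NOTCHWT_TCFWT replicate 3, 3 without NOTCHWT_TCFWT replicate 1 or NICD_TCFKO replicate 3, 3 in limma-voom and 10 in DESeq2. At an unadjusted p under 0.05 edgeR counted 0 lower, and DESeq2 and limma-voom called 0 and 0. In 14 of the 24 (58.3%) the NICD_TCFKO mean lay above NOTCHWT_TCFWT and below both other groups, which was so for 14.1% of all genes tested. That order needs a rise over NOTCHWT_TCFWT, and 22 of the 24 had a log2 fold change above 0, so the 2 shares are not alike. Mpo, the myeloperoxidase of granule precursors, measured 35.4, 18.7 and 16.4 CPM in NOTCHWT_TCFWT and 368, 225 and 713 CPM in NICD_TCFKO, and 1253 to 4676 CPM in NICD_TCFWT. Its edgeR adjusted p of 0.020 rose to as much as 0.087 when 1 library was left out. Cebpa, the factor that directs granulocyte and monocyte fate, had 1 NOTCHWT_TCFWT library without a count and measured 1.75, 2.32 and 6.57 CPM in NICD_TCFKO and 34.7 to 79 CPM in NOTCHWT_TCFKO (edgeR adjusted p = 0.0099, and 0.058 without NOTCHWT_TCFWT replicate 3). Ccl9, a chemokine of myeloid cells, measured 0.461, 0.76 and 1.31 CPM in NOTCHWT_TCFWT and 22.9, 19.7 and 44.9 CPM in NICD_TCFKO (5.07 ± 0.60, edgeR adjusted p = 0.0021) and was called in all 15 alternative settings. Among chemokines and their receptors 7 of 22 tested rose and none fell, with 3 higher without any 1 of the NOTCHWT_TCFWT libraries or NICD_TCFKO replicate 3, and 4 without NICD_TCFKO replicate 2 and in limma-voom. One was Cxcr4, the receptor that holds progenitors in the marrow, which rose from 59.99, 54.7 and 58.5 CPM in NOTCHWT_TCFWT to 98.1, 174 and 165 CPM in NICD_TCFKO (1.34 ± 0.21, edgeR adjusted p = 0.0064). At an unadjusted p under 0.05 edgeR counted 2 chemokine genes lower, and DESeq2 called 2 and limma-voom 1.

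Other genes of large rise were Ly86, the partner of the surface receptor CD180, at 0.173, 0.0331 and 0.42 CPM in NOTCHWT_TCFWT and 13.7, 53.5 and 32.7 CPM in NICD_TCFKO (7.21 ± 1.16, edgeR adjusted p = 0.0089), which was called without any 1 library, and March1, Ifi205, Plbd1 and Prss34, which were not. March1, a ubiquitin ligase of antigen-presenting cells, measured 0.115, 0 and 0.07 CPM in NOTCHWT_TCFWT and 1.13, 12.2 and 7.0 CPM in NICD_TCFKO, and Prss34, a protease of mast cells and basophils, 0, 0.298 and 0.0467 and 4.4, 8.21 and 40.1 CPM. The edgeR adjusted p of March1, Ifi205, Plbd1 and Prss34 rose to as much as 0.074, 0.10, 0.12 and 0.12 without a library.

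Adhesion genes moved both ways, with 6 of 30 called higher and 3 lower, beside 4.01% and 2.3% of all genes, and a median of -0.10. The counts were 3 and 1 without NOTCHWT_TCFWT replicate 1, 4 and 1 without NOTCHWT_TCFWT replicate 3 or NICD_TCFKO replicate 3, 6 and 0 without NICD_TCFKO replicate 2, 6 and 1 without NOTCHWT_TCFWT replicate 2 and 6 and 6 without NICD_TCFKO replicate 1. Itgax, the integrin chain CD11c of dendritic cells, measured 14, 13.9 and 17.4 CPM in NOTCHWT_TCFWT and 62.6, 142 and 134 CPM in NICD_TCFKO (2.90 ± 0.33, edgeR adjusted p = 0.0016), above all 9 other libraries, and was called in all 15 alternative settings. Cdh1, which encodes E-cadherin, measured 2.86, 1.98 and 5.32 CPM in NOTCHWT_TCFWT and 29.4, 87.1 and 63.3 CPM in NICD_TCFKO (4.14 ± 0.72, edgeR adjusted p = 0.012, and 0.059 without NOTCHWT_TCFWT replicate 1). Itga4, an integrin chain used in homing, measured 521, 391 and 628 CPM in NOTCHWT_TCFWT and 793, 1649 and 1250.4 CPM in NICD_TCFKO (1.26 ± 0.25, edgeR adjusted p = 0.016, up to 0.062 without a library). Cd44 fell from 317, 334 and 331 CPM in NOTCHWT_TCFWT to 252, 243 and 268 CPM in NICD_TCFKO, a small step that all 3 libraries shared (-0.36 ± 0.07, edgeR adjusted p = 0.012, up to 0.051 without a library).

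Lists of other lineages held a few called genes each, to be read beside 4.01% of all genes called higher and 2.3% called lower. Several of the counts are near those shares. With 1 library left out, the higher counts were 3 to 4 for NK and innate lymphoid genes, 1 to 5 for dendritic cell, 0 to 3 for macrophage, 1 to 3 for B lineage, 1 to 3 for Bcl2 family and 0 to 1 for Hox and for Myc and ribosome genes. Of 20 NK and innate lymphoid genes 3 rose and 1 fell, with a median of 0.86. Klrb1c, the NK receptor NK1.1, measured 0.606, 1.19 and 1.07 CPM in NOTCHWT_TCFWT and 8.65, 3.49 and 12.9 CPM in NICD_TCFKO, and Nfil3, a factor of innate lymphoid cells, 1.53, 1.95 and 1.77 CPM in NOTCHWT_TCFWT and 4.4, 5.86 and 4.98 CPM in NICD_TCFKO, with edgeR adjusted p of 0.0089 and 0.0011. Of 18 genes of dendritic cells and antigen presentation 3 rose and none fell (median 0.61), of 18 macrophage genes 2 and none (0.41), of 18 B lineage genes 3 and none (1.06), of 13 mast cell and basophil genes 1 and 2 (-1.44) and of 11 stromal and endothelial genes 1 and 1 (-0.07). Of 13 Bcl2 family genes 3 rose and none fell (-0.10), of 15 T cell leukaemia oncogenes 2 and none (-0.03), of 16 Hox genes 1 and none (0.08), of 25 Myc and ribosome genes 1 and none (0.06) and of 17 Cdk inhibitor and quiescence genes 1 and none (0.00046). On the side with no edgeR call, an unadjusted p under 0.05 was reached by 1 dendritic cell, 0 macrophage, 0 B lineage, 1 Bcl2 family, 2 oncogene, 1 Hox, 0 Myc and 2 Cdk inhibitor genes. DESeq2 called 0, 0, 0, 0, 1, 1, 0 and 1 of these, and limma-voom 0, 0, 0, 0, 0, 0, 0 and 0.

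**Figure D4:**
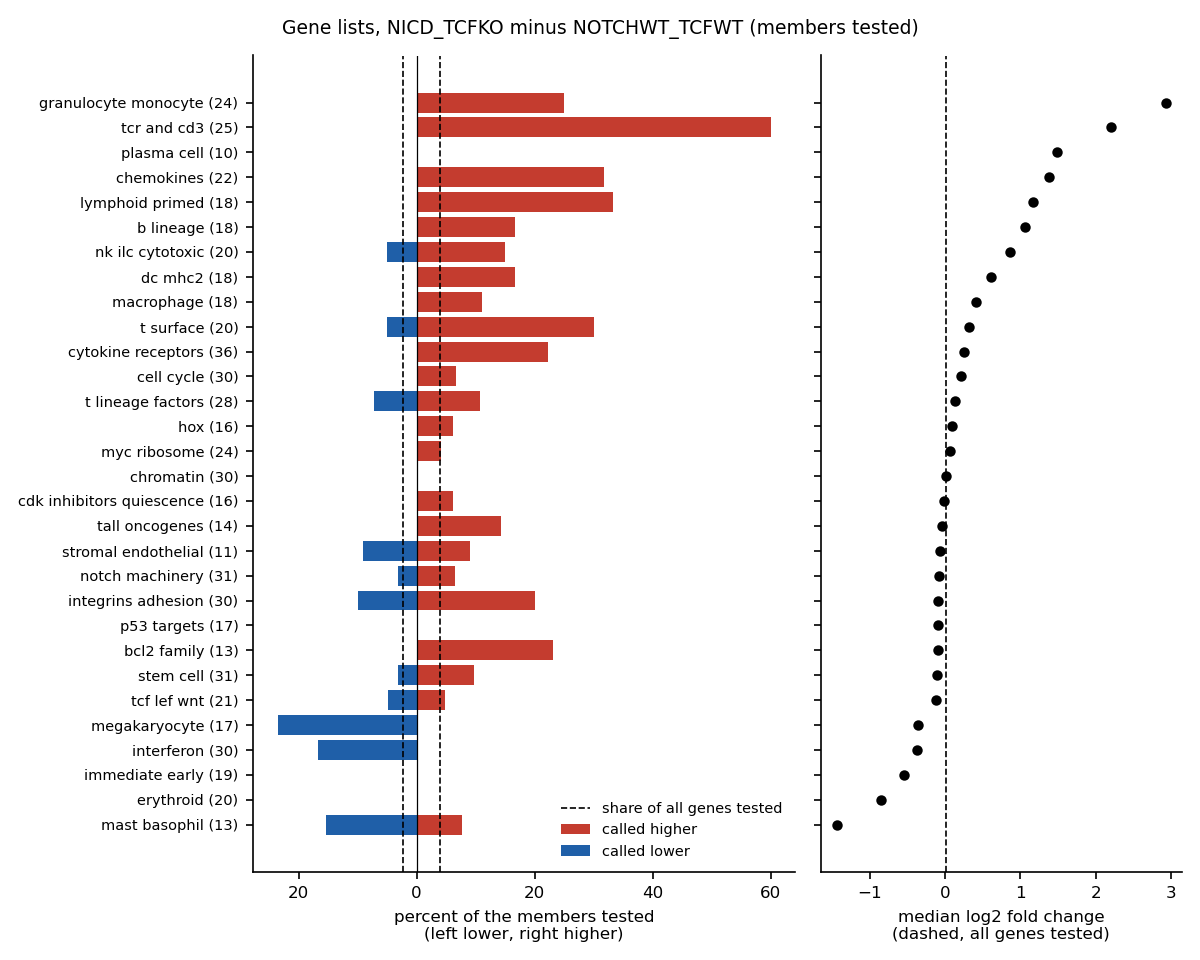
The direct Notch targets, Tcf7 among them, are left out of every list. Left, percent of the tested members of each of 30 gene lists called higher (red, to the right) or lower (blue, to the left) in NICD_TCFKO, with dashed lines at the shares of all genes tested, 4.01% and 2.3%. Right, median log2 fold change of each list, with a dashed line at 0.0107 for all genes; T cell receptor genes reach the highest share, and granulocyte and monocyte genes the highest median.

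Genes called lower included surface, guidance and junction proteins, and most were at their highest in NOTCHWT_TCFWT. Gzmb, the cytotoxic protease granzyme B, measured 1102, 600.2 and 1324 CPM in NOTCHWT_TCFWT, 275, 182 and 128 CPM in NICD_TCFKO and at most 4.22 CPM in the other 6 libraries (log2 fold change -2.37 ± 0.44, edgeR adjusted p = 0.016). The groups did not overlap, but the call was lost in 4 of the 6 fits that leave out 1 library, up to 0.062. Robo1, a receptor for Slit guidance proteins, measured 47.6, 73.4 and 55.9 CPM in NOTCHWT_TCFWT and 12.7, 11.7 and 8.62 CPM in NICD_TCFKO, and at most 1.3 CPM elsewhere (-2.42 ± 0.36, edgeR adjusted p = 0.0045). Itgb6, an integrin beta chain, measured 32.4, 25.1 and 30.2 CPM in NOTCHWT_TCFWT and 7.45, 3.51 and 4.83 CPM in NICD_TCFKO (-2.47 ± 0.30, adjusted p = 0.0016 in edgeR), with at most 0.634 CPM elsewhere. Pdgfrb, a receptor for platelet-derived growth factor, followed the same order, with 919, 1022 and 889 CPM in NOTCHWT_TCFWT, 521, 414 and 440.3 CPM in NICD_TCFKO and at most 103 CPM elsewhere (-1.04 ± 0.19, edgeR adjusted p = 0.013). In 132 of the 368 genes called lower (35.9%) the NICD_TCFKO mean lay between NOTCHWT_TCFWT above and both other groups below, an order found in 12.7% of all genes tested. The call itself selects for a NICD_TCFKO level below NOTCHWT_TCFWT, so part of this excess was set in advance.

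Further genes with large falls are given here, the first 5 of them called in each fit that left out 1 library. Frk, a tyrosine kinase related to Src, measured 20.1, 24.7 and 27.9 CPM in NOTCHWT_TCFWT and 5.5, 0.92 and 2.76 CPM in NICD_TCFKO (-2.98 ± 0.49, edgeR adjusted p = 0.0075). Dzip1, a protein of the base of cilia, measured 69.7, 82.6 and 59.3 CPM in NOTCHWT_TCFWT and 17, 14.2 and 8.89 CPM in NICD_TCFKO (-2.40 ± 0.31, edgeR adjusted p = 0.0025). Tenm4, a large adhesion protein, measured 17.7, 12.7 and 24 CPM in NOTCHWT_TCFWT, 3.43, 2.81 and 3.81 CPM in NICD_TCFKO and at most 2.39 CPM elsewhere. Hs6st2, which adds sulphate to heparan chains, measured 6.75, 7.97 and 16.4 CPM in NOTCHWT_TCFWT and 2.5, 1.26 and 1.59 CPM in NICD_TCFKO. The other groups held 1.48 to 1.82 CPM of Hs6st2, overlapping NICD_TCFKO. Rab6b, a small GTPase of the Golgi, measured 6.17, 10.9 and 9.03 CPM in NOTCHWT_TCFWT and 1.15, 0.484 and 1.25 CPM in NICD_TCFKO, with up to 23.9 CPM elsewhere. In each of these 5 the lowest NOTCHWT_TCFWT library was above the highest NICD_TCFKO library. Adgrg6, an adhesion receptor coupled to G proteins, had the largest fall of the named genes, from 19.7, 36.9 and 21.3 CPM in NOTCHWT_TCFWT to 3.68, 0.581 and 0.772 CPM in NICD_TCFKO (-3.95 ± 0.77, edgeR adjusted p = 0.017, and 0.061 without NICD_TCFKO replicate 3). Tjp1, the tight junction protein ZO-1, measured 148, 138 and 132 CPM in NOTCHWT_TCFWT and 48.7, 14.7 and 12.6 CPM in NICD_TCFKO (-2.46 ± 0.47, adjusted p = 0.018 in edgeR), and lost its call in 3 of the 6 fits without a library, up to 0.057. Il4, an interleukin of mast cells, basophils and T cells, fell from 12.8, 10.3 and 13.1 CPM in NOTCHWT_TCFWT to 3.6, 0.799 and 1.12 CPM in NICD_TCFKO (-2.71 ± 0.64, edgeR adjusted p = 0.033, up to 0.11 without a library). Adamts14, Adamtsl1, Homer2 and Susd2 fell too, with log2 fold changes of -2.48, -2.95, -2.50 and -2.79, and had adjusted p of up to 0.060, 0.097, 0.12 and 0.084 in edgeR without a library.

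F2r, the thrombin receptor PAR1, had the smallest p of the megakaryocyte list. It measured 270.00, 194 and 265 CPM in NOTCHWT_TCFWT and 70.3, 54.2 and 53.4 CPM in NICD_TCFKO (-2.03 ± 0.15, edgeR adjusted p = 7.1e-05), beside 56 to 64.8 CPM in NICD_TCFWT. Itga2b, the integrin chain CD41, had a log2 fold change of -0.93 ± 0.20, and Gp1ba and Gp5, platelet receptor chains, -1.50 ± 0.33 and -1.48 ± 0.38. These 4 of 17 were the members called, beside 2.3% of all genes lower, with none higher. Only 1 was called without NOTCHWT_TCFWT replicate 1 or 3 or NICD_TCFKO replicate 2 or 3, and the last 3 were lost without a library at adjusted p up to 0.093, 0.095 and 0.14. Other platelet genes such as Pf4, Gp9 and Vwf were not called, at log2 fold changes of 0.92, -0.26 and 0.54. On the higher side of this list edgeR counted 0 at an unadjusted p under 0.05, and DESeq2 and limma-voom called 0 and 0.

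Of the stem cell list 3 of 31 tested genes rose and 1 fell, with a median of -0.10, beside 4.01% and 2.3% of all genes. Both counts were 0 without NOTCHWT_TCFWT replicate 1 and in the fit of the 6 libraries alone. They were 1 and 0 without NOTCHWT_TCFWT replicate 2 or 3 or NICD_TCFKO replicate 3, and 2 and 4 without NICD_TCFKO replicate 1. Gata2, a factor of stem cells, mast cells and megakaryocytes, fell from 348, 326 and 354 CPM in NOTCHWT_TCFWT to 192, 60.6 and 127 CPM in NICD_TCFKO (-1.44 ± 0.31, edgeR adjusted p = 0.025, and up to 0.082 without a library). Meg3 rose from 1 count over NOTCHWT_TCFWT to 152 counts, a ratio of 135 (exact 95% interval 23.8 to 5360, counting error only), with 3.09 to 11.3 CPM in NICD_TCFWT, and was lost in 2 of the 6 fits without a library, up to 0.059. Ndn and H19, both imprinted like Meg3, rose with adjusted p of 0.046 and 0.044 in edgeR, and up to 0.14 and 0.14 without a library. Kit, which the LSK gate selects, measured 764, 784 and 818 CPM in NOTCHWT_TCFWT and 708, 609.7 and 615 CPM in NICD_TCFKO and was not called. The sum of 8 LSK markers was 1853 to 2206 CPM in the first group and 1598 to 2042 CPM in the second, so the labelled cell type carried its markers in both.

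Markers of other cells that the gate could hold differed between the groups for some cell types and overlapped for others. The sum of 10 markers of committed T cells was 359 to 399 CPM in NOTCHWT_TCFWT and 445 to 1283 CPM in NICD_TCFKO, beside at most 53 CPM in the other groups. Of the summed level in NOTCHWT_TCFWT most came from Lck, Trbc1 and Trbc2, while Cd8a and Trac each had no count in 2 of its 3 libraries. The 5 granulocyte and monocyte markers summed to 105 to 185 CPM and 348 to 964 CPM, with Ly6g at most 1.02 CPM. The gap lay in Mpo, at 16.4 to 35.4 and 225 to 713 CPM, and in Elane, while Itgam, Csf1r and Ly6g overlapped. The 3 NK markers summed to 0.894 to 2.52 CPM and 3.9 to 14 CPM, 7 macrophage markers to 5.36 to 6.52 CPM and 6.1 to 11.3 CPM, and 4 B cell markers, with Pax5 at 0 in all NOTCHWT_TCFWT libraries, to 3.34 to 5.42 CPM and 1.77 to 3.98 CPM. The gap in the NK sum came from Klrb1c, while Ncr1 and Eomes overlapped between the groups. The B cell markers overlapped, although the B lineage list had its called genes on the higher side. Erythroid markers, which overlapped as well, summed to 17.9 to 207 CPM and 19.2 to 49.2 CPM, plasma cell markers, also overlapping, to 122 to 131 CPM and 74.9 to 260.4 CPM, and stromal and endothelial markers to 109 to 122 CPM and 130 to 184 CPM. That last sum was almost all Pecam1, at 108 to 121 and 129 to 183 CPM. Cdh5, Col1a1 and Cxcl12 reached at most 0.35 CPM in the 6 libraries and overlapped between the groups. Their part in the changes of the T cell, myeloid and lymphoid lists was not tested.

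Of 30 interferon-stimulated genes 5 were called lower in NICD_TCFKO, beside 2.3% of all genes, and none higher. The other 25 were not called, 7 of the 30 had a log2 fold change above 0, and the median was -0.37. edgeR counted 2 higher at an unadjusted p under 0.05, DESeq2 called 1 and limma-voom 0. Zbp1, a sensor of nucleic acids, measured 51.7, 18.5 and 102 CPM in NOTCHWT_TCFWT and 11.9, 13.6 and 10.1 CPM in NICD_TCFKO (-2.28 ± 0.48, adjusted p = 0.022 in edgeR, up to 0.087 without a library). NOTCHWT_TCFWT replicate 2 was the lowest of its group, and no library of NICD_TCFKO reached it. The list summed to 3158, 2096 and 4361 CPM in NOTCHWT_TCFWT and to 1715, 1709 and 1568 CPM in NICD_TCFKO. Without NOTCHWT_TCFWT replicate 2 the list had 7 genes called lower, and without NICD_TCFKO replicate 3 or NOTCHWT_TCFWT replicate 1 it had 1. It had 2 without NOTCHWT_TCFWT replicate 3 or NICD_TCFKO replicate 2. All mice received poly(I:C), itself an inducer of interferon, and the time between the last dose and the sort is not given in the sources used here.

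Of 30 cell cycle genes 2 were called higher, a share near the 4.01% of all genes, and 0 were without NICD_TCFKO replicate 2 or in the fit of the 6 libraries alone. All 30 had a log2 fold change above 0, with a median of 0.21 beside 0.0107 over all genes tested. The 2 called were Uhrf1 (0.48 ± 0.10, edgeR adjusted p = 0.020) and Tyms (0.36 ± 0.08, edgeR adjusted p = 0.021), which both act in DNA replication and both missed the threshold without 1 of 3 libraries, at up to 0.059 and 0.068. The count was 1 without NOTCHWT_TCFWT replicate 1 or 3 or NICD_TCFKO replicate 3. None was called lower by edgeR, DESeq2 or limma-voom, and none was lower at an unadjusted p under 0.05. Erythroid, plasma cell, immediate-early, p53 target and chromatin genes had no called member in edgeR, with medians of -0.86, 1.49, -0.49, -0.09 and 0.01. At an unadjusted p under 0.05 edgeR counted 0 higher and 3 lower erythroid, 1 and 0 plasma cell, 0 and 1 immediate-early, 1 and 0 p53 target and 2 and 0 chromatin genes. DESeq2 called 1 erythroid and 1 immediate-early gene lower and 1 plasma cell and 1 p53 target gene higher, and limma-voom 1 immediate-early gene lower.

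Setting the called genes among all 12 libraries showed which group stood out. Of the 642 genes called higher, 323 (50.3%) were at their lowest in NOTCHWT_TCFWT, below all 9 other libraries, and 186 (29%) were at their highest in NICD_TCFKO, above all 9 others. Both held for 18. Of the 368 called lower, 249 (67.7%) were above all 9 others in NOTCHWT_TCFWT and 60 (16.3%) below all 9 others in NICD_TCFKO. These places were taken by 4.69%, 2.82%, 4.94% and 1.71% of all genes tested. Each place needs the 2 groups not to overlap, which the call favours, so larger shares among called genes were partly set in advance. Of the 2205 genes with NICD_TCFKO higher and no overlap, 751 had NOTCHWT_TCFWT below all others and 452 NICD_TCFKO above all others. Of the 1952 with NICD_TCFKO lower and no overlap, 792 had NOTCHWT_TCFWT above all others and 274 NICD_TCFKO below all others. Adam2, a member of the ADAM family of membrane proteins, was apart on both sides, with 0.0577, 0.0661 and 0.0467 CPM in NOTCHWT_TCFWT, 3.55, 6.29 and 7.52 CPM in NICD_TCFKO and 0.896 to 2.3 CPM in NICD_TCFWT (edgeR adjusted p = 0.00025).

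**Figure D5:**
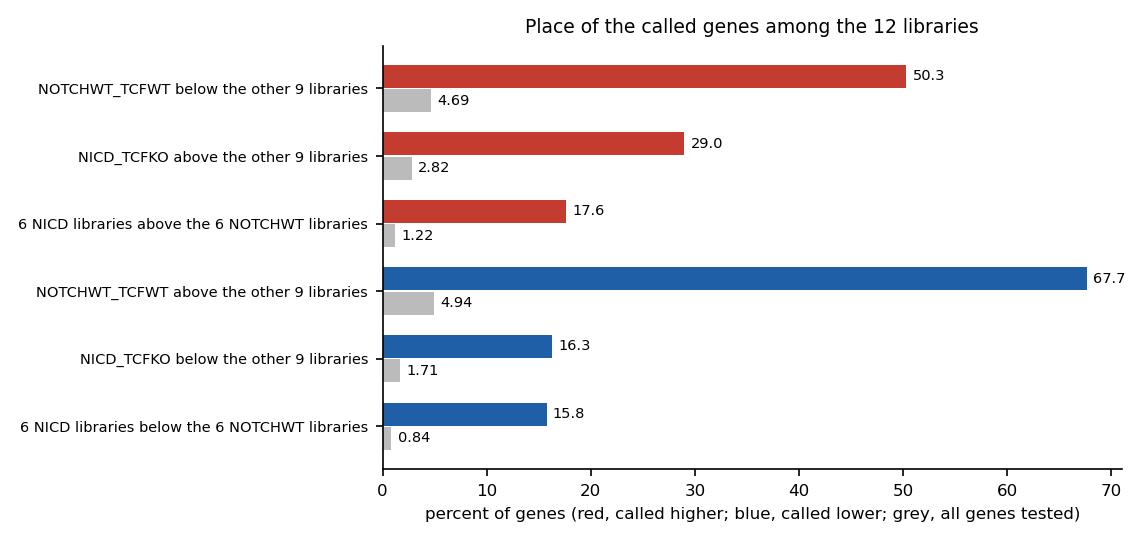
Percent of the genes called higher (red) or called lower (blue) whose libraries lie wholly above or below the others in the way named on the y axis, with the percent of all 16024 tested genes in grey. The NOTCHWT_TCFWT libraries are the ones that stand apart in 50.3% of the genes called higher and 67.7% of those called lower.

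A further set of genes followed the N1IC part of the labels in all 12 libraries, although Notch1 and its targets did not. Of the genes called higher, 113 (17.6%) were higher in all 6 libraries labelled NICD than in all 6 labelled NOTCHWT, beside 1.22% of all genes tested. Of those called lower, 58 (15.8%) were lower in all 6, beside 0.836%. Following the label needs the 2 groups compared not to overlap, which the call favours, so part of these larger shares was set in advance. Of the 2205 genes with NICD_TCFKO higher and no overlap, 196 followed the label. Of the 1952 with NICD_TCFKO lower and no overlap, 134 did. Of the 113, 34 differed at least 16-fold. Zfp990, a zinc finger gene at chr4:145510759-145539188 (mm10), measured 0.49, 0.0992 and 0.513 CPM in NOTCHWT_TCFWT and 67.1, 73.4 and 108 CPM in NICD_TCFKO, and 101, 91.4 and 103 CPM in NICD_TCFWT and 0.211, 0.292 and 0.655 CPM in NOTCHWT_TCFKO (log2 fold change 7.74 ± 0.45, edgeR adjusted p = 3.6e-05). It was present or near absent by label, with no library between. Zbtb16, the factor PLZF of innate-like lymphocytes and progenitors, followed the label too, with 0.836, 0.231 and 0.42 CPM in NOTCHWT_TCFWT, 12.9, 26.1 and 25.5 CPM in NICD_TCFKO, 16.7 to 26.8 CPM in NICD_TCFWT and 7.08 to 10.5 CPM in NOTCHWT_TCFKO (edgeR adjusted p = 0.00031).

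Some of these genes were neighbours. On chromosome 11 of mm10, St6galnac2, a sialyltransferase gene at chr11:116675303-116694868, measured 0.0288, 0.0992 and 0.0467 CPM in NOTCHWT_TCFWT and 29.8, 70.6 and 90.4 CPM in NICD_TCFKO (10.07 ± 0.63, edgeR adjusted p = 4.1e-05). BC018473, at chr11:116752167-116759373, measured 0.0865, 0 and 0.0934 CPM in NOTCHWT_TCFWT and 94.7, 120.1 and 137 CPM in NICD_TCFKO, and Mxra7, at chr11:116803062-116828046, 0.0577, 0.0992 and 0.163 CPM in NOTCHWT_TCFWT and 2.4, 6.1 and 5.68 CPM in NICD_TCFKO. In each of the 3 every NICD_TCFKO library was above every NICD_TCFWT library, which had 5.58 to 11.5, 17.2 to 56.1 and 0.411 to 0.73 CPM. Ribosomal protein pseudogenes were in the set as well, such as Rps3a3 on chromosome 13 with 19.2, 18.8 and 19 CPM in NOTCHWT_TCFWT and 337, 294 and 473 CPM in NICD_TCFKO, though reads of such copies can come from the parent gene. Nlrp1b, an inflammasome gene known to vary between inbred mouse strains, measured 5.13, 6.55 and 4.9 CPM in NOTCHWT_TCFWT and 18.3, 13.9 and 22.7 CPM in NICD_TCFKO. Naip5, of which the same is known, went the other way, with 82.7, 80.03 and 77.6 CPM in NOTCHWT_TCFWT and 31.2, 19.1 and 14.7 CPM in NICD_TCFKO. BC018473, Mxra7, Rps3a3, Nlrp1b and Naip5 were picked as examples after their values were seen. Of the 171 genes, 26 (15.2%) lay on chromosome 11, 22 (12.9%) on chromosome 4 and 21 (12.3%) on chromosome 7, which hold 8.48%, 6.57% and 7.39% of all genes tested. Chromosome 13 held 13 (7.6%) beside 3.68% of all genes, the largest share relative to all genes, and chromosome 18 held 8 (4.68%) beside 2.43%. The labels give the same mixed background for every library, and the alleles each mouse carried at these places were not analysed here.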

How the data were processed

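RNA was sequenced from sorted bone marrow LSK cells in 12 libraries, 3 for each of 4 labelled groups. RNA isolation with a PicoPure kit, TruSeq and Nextera XT library steps and single-end 75 nt reads on a NextSeq 500 are given per the labels' protocols. The submitters' processing notes name mm10, the aligner HISAT2, the counter featureCounts 1.4.4, limma, edgeR 3.28.0, cutadapt 1.9.1 and bcl2fastq 2.17, without settings. The authors deposited raw counts of 39017 Ensembl genes. They were equal in every cell to the deposited series table of counts. All 37 mitochondrial genes had 0 counts. A deposited table of log2 values was not used.

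Symbols and positions came from GENCODE M21 (37693 genes matched), and promoter windows from RefSeq (GRCm38.p6). After filterByExpr by group, 16024 genes holding at least 99.92% of each library's counts were scaled by TMM and fitted in edgeR 4.0.16 (R 4.3.3) by a robust quasi-likelihood model with 1 mean per group over all 12 libraries, checked on simulated data. The two-sided test of the contrast was adjusted by Benjamini-Hochberg over these genes. SE was computed as the fold change (log2) over the root of F. The common biological coefficient of variation was 0.299, and 3 counts in the shallowest library are 0.0992 CPM. Intervals of count ratios are exact binomial at 95% and cover counting error only. Alternatives were RLE size factors, no filter, a filter of 1 CPM in 3 libraries, DESeq2 1.42.0, limma-voom (limma 3.58.1), only the 6 libraries, a replicate block, a covariate for sheets inferred from numbers in the sample titles, no Y-linked genes or Xist, and leaving out each library.

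The pair of groups and the 31 gene lists (625 distinct genes, 72 in more than 1 list) were chosen with earlier results of these data known. Named are all direct Notch targets of the list, which were not tested as such, for each direction the 15 called genes of largest fold whose higher group averages at least 5 CPM and whose groups do not overlap, without predicted, clone-named, pseudo-, segment, antisense and sex-linked genes, and from the up to 4 called members of each list with the smallest p. Lists with 5 or fewer called members may be named whole. Where leaving out 1 library ended a call, a gene named as called is given with that value. Members that were not called, and called members beyond this choice, such as Rag1, Thy1 and Itga4, were named after their values were seen. Of the genes this choice covers, 1 is not reported here, and called members of lists are given as counts where they are not named.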

Additional observations from a re-analysis of the deposited data

How the results depend on the processing

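The counts of 642 genes higher and 368 lower were 1161 and 865 in DESeq2, which also called 1006 of the 1010 genes called by edgeR, and 360 and 178 in a fit of the 6 libraries alone. Leaving out each library in turn gave 251 to 781 genes higher and 117 to 504 lower. The lowest of these followed from leaving out NOTCHWT_TCFWT replicate 1, with 251 and 117, then NOTCHWT_TCFWT replicate 3, with 270 and 122, and NICD_TCFKO replicate 3, with 303 and 137. Without NICD_TCFKO replicate 2 the lower count was 165. In each case the cause was not tested, beyond the smaller number of libraries. The other settings, RLE, both filters, limma-voom, the sheet covariate, and no Y-linked genes or Xist, gave 494 to 652 higher and 305 to 411 lower. Of 82 named genes with a test none changed direction in any of the 15 settings, and 28 were called in all of them. Whether replicate numbers pair the libraries was not settled by their correlations, which were weak. The deviations of same-numbered libraries from their group means correlated at 0.0484, -0.0653 and 0.16. NOTCHWT_TCFWT replicates 1 and 3 correlated best with the NICD_TCFKO library of the same number, and replicate 2 with NICD_TCFKO replicate 1 (0.136). With a replicate block 471 genes were higher and 265 lower, 704 of them shared with the fit without it. A group of 3 libraries and a floor of 3 counts (0.0992 CPM in the shallowest library) limit what can be said of genes near 0, where folds of Ptcra, Meg3 or Cd3g rest on a handful of counts in NOTCHWT_TCFWT.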
